A study of Mus musculus with 24 samples.

Results

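The galectin genes Lgals1, Lgals3, Lgals8 and Lgals9 and the galectin-binding glycoprotein gene Lgals3bp were followed in B16-F10 mouse melanoma cells that had lost MITF, TFEB, TFE3 or combinations of them. The members were taken by symbol from a table of normalised read counts, which held all 5 among its 12010 genes. The set was chosen by the level of Lgals3, whose transcript is lost in 2 of the lines, and its values there are given as a description without a test. All cells were B16F10-luc2, a B16-F10 line that carries a luciferase reporter, and the table covered 8 lines with 3 libraries each (24 libraries). The lines were the parental cells (genotype WT), the MITF KO, the TFE3 KO, the TFEB KO, the TFEB/TFE3 DKO, the MITF/TFE3 DKO, the MITF/TFEB DKO and the MITF/TFEB/TFE3 triple KO (TKO), all untreated. The MITF KO was an existing line with a frameshift in Mitf, in which some truncated protein may remain. TFEB and TFE3 were removed with Cas9 in the parental or the MITF KO cells and the new KO lines are clones, so that a clone and its genotype cannot be told apart. Nothing in the labels says that replicates were separate cultures, so that p-values measure the spread between libraries, which may be technical.

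Galectins are small lectins that bind galactose-containing glycans on proteins and lipids and act both outside and inside the cell. Outside it they bridge cell-surface and matrix glycoproteins, and inside it they gather on the exposed glycans of damaged lysosomes. Galectin-1 is a homodimer, galectin-3 joins a carbohydrate-binding domain to a self-associating tail, and galectin-8 and galectin-9 carry a pair of such domains in tandem. Lgals3bp encodes a secreted, heavily glycosylated protein that binds galectin-3. Lgals9 and Lgals3bp are known to be inducible by interferon, and galectins are made by many melanomas. MITF, TFEB and TFE3 are related transcription factors of melanocyte identity and lysosome biogenesis that bind E-box sequences such as CACGTG and CATGTG.

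The 250 bases upstream of the start of the 3 members with the widest range of levels are shown from RefSeq on GRCm38.p6, in the direction of the gene, with matches to the motifs searched in capitals. Promoter entries were found for 4 of the 5 members. Lgals3 is at chr14:47373610-47373859 on the plus strand, Lgals9 at chr11:78984925-78985174 and Lgals3bp at chr11:118401960-118402209, both on the minus strand.
Lgals3: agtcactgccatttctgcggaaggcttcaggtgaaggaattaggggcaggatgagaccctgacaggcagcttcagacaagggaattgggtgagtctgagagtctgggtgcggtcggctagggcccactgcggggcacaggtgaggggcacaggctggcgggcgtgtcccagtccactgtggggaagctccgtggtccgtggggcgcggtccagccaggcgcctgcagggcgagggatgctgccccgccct
Lgals9: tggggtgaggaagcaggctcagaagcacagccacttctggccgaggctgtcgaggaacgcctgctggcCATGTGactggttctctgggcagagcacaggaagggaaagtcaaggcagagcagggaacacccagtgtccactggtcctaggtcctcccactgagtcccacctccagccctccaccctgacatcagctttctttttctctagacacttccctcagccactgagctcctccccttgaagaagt
Lgals3bp: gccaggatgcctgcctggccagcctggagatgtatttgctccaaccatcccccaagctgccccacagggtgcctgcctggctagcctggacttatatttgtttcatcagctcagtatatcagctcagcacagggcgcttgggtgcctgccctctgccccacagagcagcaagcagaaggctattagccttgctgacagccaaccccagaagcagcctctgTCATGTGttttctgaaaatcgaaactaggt
Both strands were searched for the E-box CACGTG, for its variant CATGTG and for the longer forms with a leading T, which are TCACGTG for the E-box and TCATGTG for the variant and contain the shorter ones. No window of 250 bases upstream and 50 bases downstream of the start of Lgals3 or Lgals8 held any of them. The Lgals9 window held CATGTG at 182 bases upstream and none of the other motifs. The Lgals3bp window held TCATGTG at 30 bases upstream and a CATGTG match at 42 bases downstream. Over 32851 RefSeq windows of the same length, CATGTG was present in 14.2%, TCATGTG in 3.77%, CACGTG in 7.15% and TCACGTG in 3.77%. A match describes these letters and was not tested as a site.

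The libraries were 3′-end libraries, in which reads start near the poly(A) tail, and held between 18300902 and 26667877 reads on genes. Values are CPM, the reads of a gene scaled to a common library size and corrected for library composition, and 1 read was worth 0.0364 to 0.0545 CPM. A gene was called at a difference of at least 2-fold with an unadjusted p under 0.05 in limma, the study's threshold. Adjusted p-values are Benjamini-Hochberg values from the same limma fit over all 12010 genes, and log2 fold changes are differences of log2(CPM + 1), given with their SE. The 8 melanocyte markers looked for (Pmel, Mlana, Tyr, Tyrp1, Dct, Sox10, Trpm1 and Gpr143) were all in the table, with summed levels of 15504 to 39003 CPM. Of 10 macrophage and leukocyte markers, 3 were in the table (Cd68, Lyz2 and Fcer1g), with a summed level of 1.28 to 5.58 CPM, and of 9 fibroblast and endothelial markers 3 were (Col1a1, Col1a2 and Pecam1), with at most 47.2 CPM in any library. Tfe3 and Tfeb were lower in every line in which they were targeted, Tfe3 at 8.63 to 19.8 CPM against 37.1 CPM and Tfeb at 2.88 to 5.12 CPM against 8.80 CPM in parental cells. Mitf stood at 1397 CPM in the MITF KO and 776 CPM in parental cells, and a frameshift need not change the reads at the 3′ end.

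**Figure D1:**
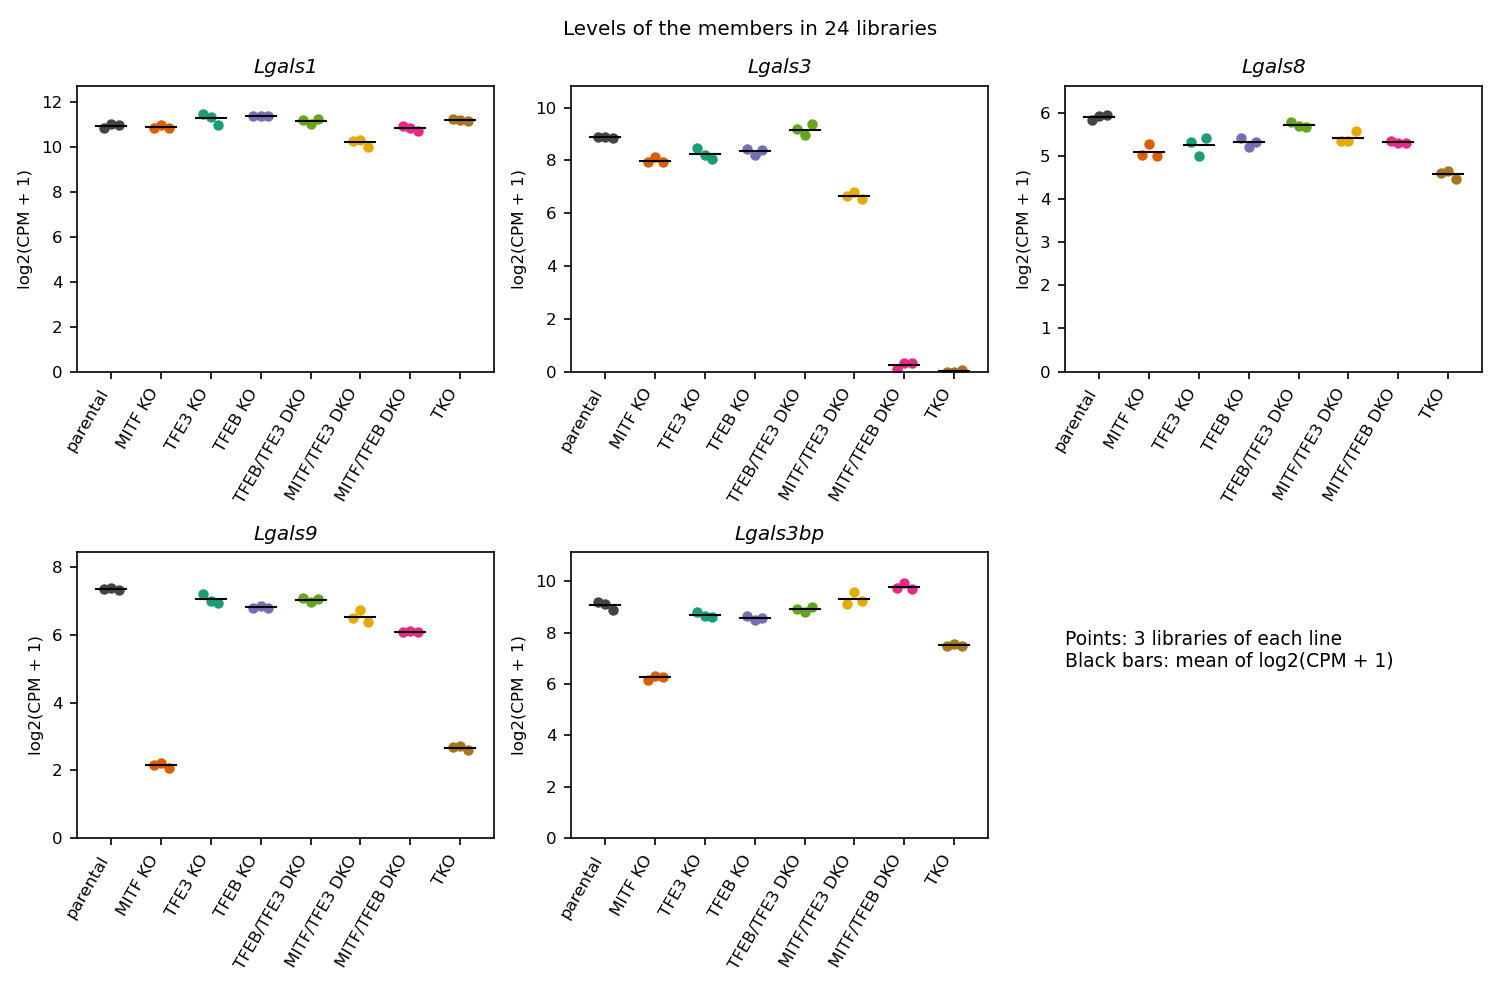
Level of each member in every library as log2(CPM + 1), for 8 cell lines; points are the 3 libraries of a line and black bars their mean. Lgals3 sits at the bottom of its panel for the MITF/TFEB DKO and TKO, Lgals9 falls in the MITF KO and the TKO, and Lgals1 stays within 1045 to 2894 CPM in all 24 libraries.

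Lgals3 encodes galectin-3 and lies at chr14:47605208-47623624 (GRCm39, plus strand, 6 exons). Its level was 466, 475 and 462 CPM in the parental libraries. In the MITF/TFEB DKO it was 0.0784, 0.252 and 0.239 CPM, which is 2, 6 and 6 reads. In the TKO it was 0, 0 and 0.0430 CPM, which is 1 read in 3 libraries. The libraries of these lines therefore lay far below the other 18 libraries, of which the lowest had 92.4 CPM. Pooled over the line, the MITF/TFEB DKO had 14 reads of Lgals3 and a level of 0.188 CPM with an exact 95% Poisson interval of 0.103 to 0.316 CPM, against 31523 reads in parental cells. The parental level was 2486 times that of the MITF/TFEB DKO (interval 1482 to 4548) and 33543 times that of the TKO (interval 6020 to 1324871). These intervals cover counting error only. Of 2141 genes with a parental mean of at least 100 CPM, Lgals3 was the 1 gene at or below 1% of the parental mean in both lines, and 6 genes (Lgals3, Car14, Eps8, Tspan10, Nckap5l and Tyr) were at or below 10%. Because Lgals3 was chosen by these same levels, its place among these genes is a description and no independent result. In bulk RNA, fewer cells with a transcript and less transcript per cell cannot be told apart.

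Lgals3 was present in the other 6 lines. The MITF KO had 242, 276 and 243 CPM. The TFE3 KO libraries were at 349, 293 and 265 CPM, and those of the TFEB KO at 343, 296 and 339 CPM. All 9 of these libraries lay below the 3 parental ones. Against parental, the MITF KO differed by -0.88 ± 0.11 on the log2 scale (adjusted p = 7.1e-07), the TFE3 KO by -0.64 ± 0.11 (adjusted p = 0.00027) and the TFEB KO by -0.52 ± 0.11 (adjusted p = 0.0036), none of them 2-fold. In the MITF/TFE3 DKO the level was 99.8, 109 and 92.4 CPM, and Lgals3 was downregulated (log2 fold change -2.21 ± 0.11, adjusted p = 3.7e-13). The MITF/TFE3 DKO also lay below the MITF KO (log2 fold change -1.33 ± 0.11, adjusted p = 1.5e-09) and the TFE3 KO (-1.57 ± 0.11, adjusted p = 4.6e-11). The TFEB/TFE3 DKO had the highest mean, with 581, 494 and 658 CPM. All 3 of its libraries exceeded the parental ones, but the difference of 0.29 ± 0.11 did not pass (adjusted p = 0.092), and without its replicate 2 it was 0.40 with an adjusted p of 0.023. It was above the TFE3 KO by 0.93 ± 0.11 (adjusted p = 1.4e-06) and above the TFEB KO by 0.82 ± 0.11 (adjusted p = 0.00012, but 0.14 with only the libraries compared in the fit). In the order of the means, the TFEB KO and the TFE3 KO overlapped, as did the TFE3 KO and the MITF KO, and the remaining neighbours did not.

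Melanocyte markers fell in the lines that lost Lgals3, while their summed level was above parental in some lines that kept it. The MITF/TFEB DKO and TKO each had 6 of the 8 markers called lower, against 4.94% and 6.41% of all genes. The MITF KO had 1 (2.99% of all genes) and the MITF/TFE3 DKO none (2.37%). The summed marker level was 25379 to 26226 CPM in parental libraries, 16586 to 19062 CPM for the MITF/TFEB DKO and 15504 to 16533 CPM for the TKO. It was 28874 to 31536 CPM for the MITF/TFE3 DKO and highest in the MITF KO, at 36986 to 39003 CPM, where Lgals3 was present. The part of these marker shifts in the level of Lgals3 was not tested.

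The genes next to Lgals3 on the chromosome remained measurable in the lines in which it was lost. The 5 genes of the table on either side were Samd4, Gch1, Wdhd1, Socs4 and Mapk1ip1l, and Dlgap5, Fbxo34, Atg14, Ktn1 and Tmem260. They lay up to 1108 kb away, measured between gene midpoints. Across these 10 genes, log2 fold changes against parental ran from -0.49 to 0.70 for the MITF/TFEB DKO (median 0.16) and from -0.27 to 1.25 for the TKO (median 0.12). The lowest of their means were 11.2 CPM and 9.44 CPM. Mapk1ip1l, the neighbour upstream, had 68.4 CPM in parental cells, 65.9 CPM without MITF and TFEB and 72.2 CPM without all 3 factors. Dlgap5, the neighbour downstream, had 16.1, 11.2 and 15.3 CPM. Over the 100 nearest genes with a mean of at least 5 CPM the median difference was 0.14 (MITF/TFEB DKO) and 0.12 (TKO) on the log2 scale, and for the other members the median of such a window lay between -0.26 and 0.15 in every line. Single neighbours of other members did shift. In the TKO the 5 genes on either side ran from -1.71 to 0.69 for Lgals8 and from -2.20 to 0.12 for Lgals9. The farthest lay 3283 kb from Lgals8 and 671 kb from Lgals9, and these shifts were not tested further.

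**Figure D2:**
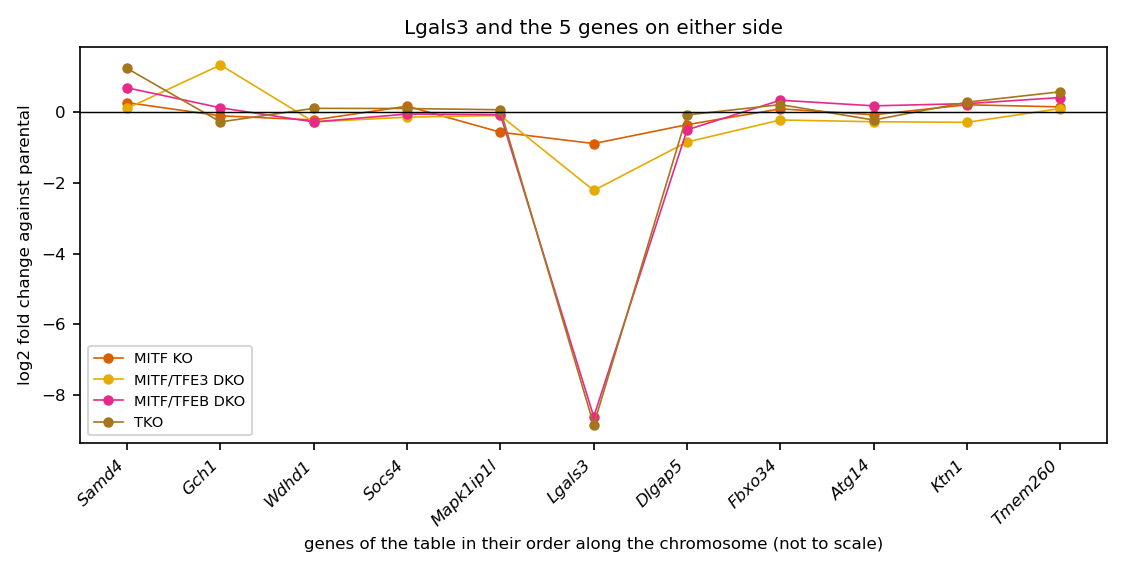
Log2 fold change against parental of Lgals3 and the 5 genes of the table on either side, in their order along the chromosome, for 4 lines that carry the MITF KO; the points are limma estimates from 3 libraries a line. Lgals3 stands far below its neighbours for the MITF/TFEB DKO and TKO, where the neighbours lie between -0.49 and 1.25.

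Lgals9, which encodes tandem-repeat galectin-9 (chr11:78853800-78875798, GRCm39, minus strand, 10 exons), fell in the MITF KO and the TKO and, to a lesser extent, in MITF/TFEB DKO cells. Its level was 162, 168 and 160 CPM in parental cells. The MITF KO had 3.44, 3.69 and 3.16 CPM, from 73, 92 and 58 reads. The TKO had 5.50, 5.56 and 5.03 CPM. In the DKOs that carry the MITF KO the level lay between these and the parental one, with 67.0, 68.8 and 66.8 CPM after loss of TFEB and 89.2, 105 and 81.6 CPM after loss of TFE3. On the log2 scale the MITF KO differed from parental by -5.21 ± 0.09 (adjusted p = 8.8e-23) and the TKO by -4.69 ± 0.09 (adjusted p = 9.3e-22). The MITF/TFEB DKO differed by -1.26 ± 0.09 (adjusted p = 3.8e-11) and the MITF/TFE3 DKO by -0.83 ± 0.09 (adjusted p = 1.4e-07), the latter below 2-fold. The TFEB KO, at 110 to 115 CPM, differed by -0.54 ± 0.09 (adjusted p = 0.00038). The TFE3 KO, at 123 to 148 CPM, and the TFEB/TFE3 DKO, at 125 to 135 CPM, differed by -0.30 and -0.32, each with an adjusted p of 0.027. Leaving out any 1 library of either line or of parental cells, apart from TFE3 KO replicate 1, moved these to between 0.052 and 0.12, and the TFE3 KO was at 0.11 with only the libraries compared in the fit. In the order of the means only the TFE3 KO and the TFEB/TFE3 DKO overlapped.

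Lgals3bp (chr11:118280716-118292918, GRCm39, minus strand, 6 exons) fell in the same pair of lines as Lgals9 but was at or above the parental level in the DKOs with the MITF KO. Parental cells had 584, 549 and 464 CPM, MITF KO cells 70.9, 78.5 and 76.3 CPM and TKO cells 176, 188 and 178 CPM. The MITF/TFEB DKO reached 855, 965 and 838 CPM, and the MITF/TFE3 DKO 553, 763 and 597 CPM. The difference from parental on the log2 scale was -2.80 ± 0.10 for the MITF KO (adjusted p = 2.5e-16) and -1.55 ± 0.10 for the TKO (adjusted p = 9.9e-12). For the MITF/TFEB DKO it was 0.74 ± 0.10 (adjusted p = 2.1e-06), below 2-fold, and its 3 libraries lay above those of every other line. For the MITF/TFE3 DKO it was 0.25 ± 0.10 with overlapping libraries (adjusted p = 0.052), and passed in edgeR (0.0499), after quantile normalization (0.0073) and without replicate 1 of the parental cells (0.030) or of that line (0.015). The remaining lines lay at 361 to 515 CPM, with log2 fold changes of -0.37 in the TFE3 KO (adjusted p = 0.019), -0.48 in the TFEB KO (adjusted p = 0.0055) and -0.14 in the TFEB/TFE3 DKO (adjusted p = 0.43). The value for the TFE3 KO had an adjusted p of 0.066 to 0.11 without parental replicate 1 or 2 or TFE3 KO replicate 2 or 3. With only the libraries compared in the fit, it did not pass (0.10), nor did the TFEB KO (0.073).

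Lgals8, which encodes galectin-8, a sensor of damaged vesicles (chr13:12454282-12479840, GRCm39, minus strand, 10 exons), was highest in parental cells, with 56.0, 60.5 and 61.1 CPM. It was lowest in the TKO, with 23.5, 24.2 and 21.2 CPM, where it was downregulated (log2 fold change -1.33 ± 0.11, adjusted p = 2.4e-10). No parental library overlapped with a library of another line. In the MITF KO it had 31.8, 38.0 and 31.1 CPM (-0.80 ± 0.11, adjusted p = 2.2e-06), and for the TFEB KO, TFE3 KO, MITF/TFEB DKO and MITF/TFE3 DKO the log2 fold changes were between -0.66 and -0.48. In the TFEB/TFE3 DKO it had 54.2, 51.1 and 50.4 CPM, and the difference from parental of -0.19 ± 0.11 did not pass (adjusted p = 0.31). The gene overlaps with Heatr1 on the opposite strand.

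Lgals1, which encodes galectin-1 (chr15:78810875-78814670, GRCm39, plus strand, 4 exons), had no called change against parental in any line. It had 1828, 2103 and 2018 CPM in parental cells and was lowest in the MITF/TFE3 DKO, with 1238, 1287 and 1045 CPM, all below every library of the other lines (log2 fold change -0.74 ± 0.11, adjusted p = 1.2e-05). It was highest in the TFEB KO, with 2678, 2700 and 2706 CPM (0.44 ± 0.11, adjusted p = 0.016). The TFE3 KO, at 2057 to 2894 CPM, and the TKO, at 2309 to 2441 CPM, differed by 0.33 (adjusted p = 0.048) and 0.26 (adjusted p = 0.0499). The adjusted p of the TFEB KO rose to 0.098 without parental replicate 1 and 0.058 without TFEB KO replicate 3. That of the TFE3 KO rose to between 0.072 and 0.19 without any 1 parental library or TFE3 KO replicate 1 or 2, and that of the TKO to between 0.076 and 0.18 without parental replicate 1 or 3 or any 1 TKO library. The difference of the TKO also did not pass with median-of-ratios size factors (adjusted p = 0.061) or a pseudocount of 5 (0.051), and was 0.73 after quantile normalization (adjusted p = 1.1e-08). With only the libraries compared in the fit, the TFE3 KO and the TFEB KO did not pass (adjusted p = 0.24 and 0.083). The differences of MITF KO (-0.03 ± 0.11) and MITF/TFEB DKO cells (-0.12 ± 0.11) did not pass (adjusted p = 0.83 and 0.38). After quantile normalization both had the opposite sign and passed, at 0.27 (adjusted p = 0.0048) and 0.30 (adjusted p = 0.00098). Apart from the step to the MITF/TFE3 DKO, neighbours in the order of its levels overlapped. The gene overlaps with Gm30368 on the opposite strand.

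**Figure D3:**
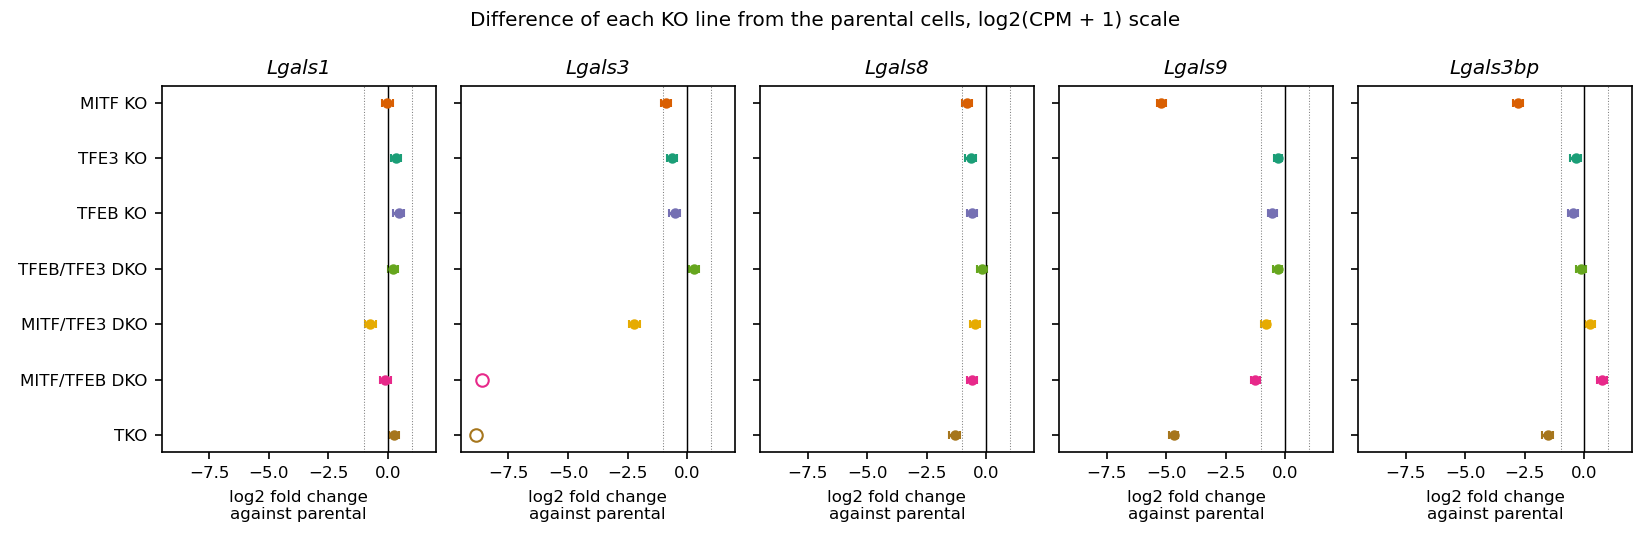
Log2 fold change against parental, on the log2(CPM + 1) scale, of each member in the 7 KO lines; filled points are limma estimates with 95% confidence intervals, and open points mark Lgals3 in the lines that chose it, without an interval. Dotted lines mark a 2-fold change. Lgals9 reaches -5.21 in the MITF KO and Lgals3bp -2.80, while Lgals1 stays within the dotted lines in all 7.

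Counted by line, 2 of 5 members (Lgals9 and Lgals3bp) were called lower in the MITF KO, in which 2.99% of all genes were called lower. None of 5 was called in the TFE3 KO (1.71% of all genes), the TFEB KO (0.783%) or the TFEB/TFE3 DKO (0.958%). In the MITF/TFE3 DKO 1 of 5 (Lgals3) was called lower, against 2.37% of all genes. With Lgals3 set aside, 1 of 4 (Lgals9) was called lower for the MITF/TFEB DKO, against 4.94% of all genes, and 3 of 4 (Lgals8, Lgals9 and Lgals3bp) for the TKO, against 6.41%. At an adjusted p under 0.05 without a fold limit, 4 of 5 members differed for the MITF KO (37.8% of all genes), 5 of 5 for the TFE3 KO (12.3%), 5 of 5 for the TFEB KO (4.84%) and 1 of 5 for the TFEB/TFE3 DKO (8.81%). By the same rule 4 of 5 differed for the MITF/TFE3 DKO (41.9%), 3 of 4 for the MITF/TFEB DKO (56.1%) and 4 of 4 for the TKO (56.2%). With these few members the counts describe them and no more. The comparisons share the parental libraries.

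Lines that differ by 1 factor were compared next, to see how the further loss of TFEB or TFE3 met the changes of the MITF KO. Relative to the MITF KO, Lgals9 was upregulated after the further loss of TFEB (log2 fold change 3.95 ± 0.09, adjusted p = 1.1e-20) and of TFE3 (4.39 ± 0.09, adjusted p = 2.5e-21). Lgals3bp was upregulated by 3.54 ± 0.10 and 3.05 ± 0.10 (adjusted p = 1.6e-18 and 5.4e-17). These were 2 of the 4 members tested for the MITF/TFEB DKO (6.91% of all genes called higher) and, with Lgals3 called lower, 3 of 5 for the MITF/TFE3 DKO (5.06% called in either direction). In the TKO both genes were down again. Lgals9 fell relative to the MITF/TFEB DKO by 3.43 (adjusted p = 3.4e-19) and relative to the MITF/TFE3 DKO by 3.86 (adjusted p = 3.8e-20). Lgals3bp fell by 2.28 (adjusted p = 2e-14) and by 1.80 (adjusted p = 1.1e-12). They were the called members of 4 tested in either comparison, in which 1.98% and 5.75% of all genes were called lower. The TKO and the MITF KO were not tested against each other, and the 3 libraries of the TKO lay above those of the MITF KO for both genes.

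Lgals8 and Lgals1 changed less in these comparisons. Lgals8 in the TKO lay below the MITF/TFEB DKO (log2 fold change -0.74 ± 0.11, adjusted p = 1.9e-05) and the MITF/TFE3 DKO (-0.85 ± 0.11, adjusted p = 4.8e-07), both below 2-fold. It was called lower against the TFEB/TFE3 DKO (-1.14 ± 0.11, adjusted p = 3.1e-09). Lgals9 (-4.37 ± 0.09) and Lgals3bp (-1.40 ± 0.10) were called lower there too, which makes 3 of 4 members against 7.02% of all genes. Lgals1 was lower in the MITF/TFE3 DKO than in the TFE3 KO (-1.07 ± 0.11, adjusted p = 3.9e-08), where Lgals3 made 2 of 5 members called lower against 2.62% of all genes. This difference in Lgals1 dropped under 2-fold after quantile normalization (-0.90) and without TFE3 KO replicate 1 (-0.96) or MITF/TFE3 DKO replicate 3 (-0.98). Lgals1 was higher in the TKO than in the MITF/TFE3 DKO by 0.995 ± 0.11 (adjusted p = 7.5e-08), just under 2-fold. This difference passed 2-fold after quantile normalization (1.26) and without MITF/TFE3 DKO replicate 1 or 2 or TKO replicate 2 or 3 (up to 1.05). Lgals3bp was higher in the MITF/TFEB DKO than in the TFEB KO by 1.22 ± 0.10 (adjusted p = 7.5e-10), the 1 member of 4 called higher, against 9.32% of all genes. No member was called between the TFEB/TFE3 DKO and the TFE3 KO (2.87% of all genes), where leaving out TFE3 KO replicate 1 or TFEB/TFE3 DKO replicate 2 brought Lgals3 past 2-fold (1.04). None was called between the TFEB/TFE3 DKO and the TFEB KO (0.192%), nor of 4 tested between the MITF/TFEB DKO and the MITF/TFE3 DKO (9.75%).

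Whether the effect of 1 loss differed with another was tested as an interaction in the limma fit, the log2 level in the DKO minus that in both single KOs plus that in parental cells. A value of 0 means that the effects add up on the log2 scale. Lgals9 had an interaction of MITF with TFEB of 4.50 ± 0.13 (adjusted p = 1.3e-18) and of MITF with TFE3 of 4.69 ± 0.13 (adjusted p = 8.3e-19). Lgals3bp had 4.02 ± 0.15 (adjusted p = 2.2e-16) and 3.43 ± 0.15 (adjusted p = 7e-15). For both genes the DKO was therefore far above the sum of the single losses. Values of at least 1 with an adjusted p under 0.05 were found for 2 of 4 members with MITF and TFEB, against 12.1% of all genes, and for 3 of 5 with MITF and TFE3, against 6.09%. The 1 of them below 0 was Lgals1 (-1.04 ± 0.15, adjusted p = 2.6e-05). Lgals3 had an interaction of MITF with TFE3 of -0.69 ± 0.15 (adjusted p = 0.002), which means that the MITF/TFE3 DKO was lower than the single losses add up to.

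After loss of both TFEB and TFE3, Lgals3 and Lgals8 lay above the level to which the single losses add up. For Lgals3 both single KOs were below parental cells, while the DKO mean was above them (577 and 468 CPM). That difference between the DKO and parental cells did not pass. The interaction of TFEB with TFE3 was 1.45 ± 0.15 for Lgals3 (adjusted p = 6e-07) and 1.06 ± 0.15 for Lgals8 (adjusted p = 4e-05), 2 of 5 members against 3.25% of all genes. It was 0.71 for Lgals3bp (adjusted p = 0.0023), 0.53 for Lgals9 (adjusted p = 0.0071) and -0.56 for Lgals1 (adjusted p = 0.019, but 0.06 without parental replicate 1 and 0.052 without TFE3 KO replicate 2). In cells with the MITF KO the same interaction, added after the data had been seen, was -7.81 ± 0.13 for Lgals9 (adjusted p = 1.2e-23) and -5.34 ± 0.15 for Lgals3bp (adjusted p = 4.3e-19). For Lgals8 it was -1.07 ± 0.15 (adjusted p = 9.3e-06) and for Lgals1 1.08 ± 0.15 (adjusted p = 1.3e-05). All 4 members tested passed a value of at least 1, against 7.99% of all genes.

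**Figure D4:**
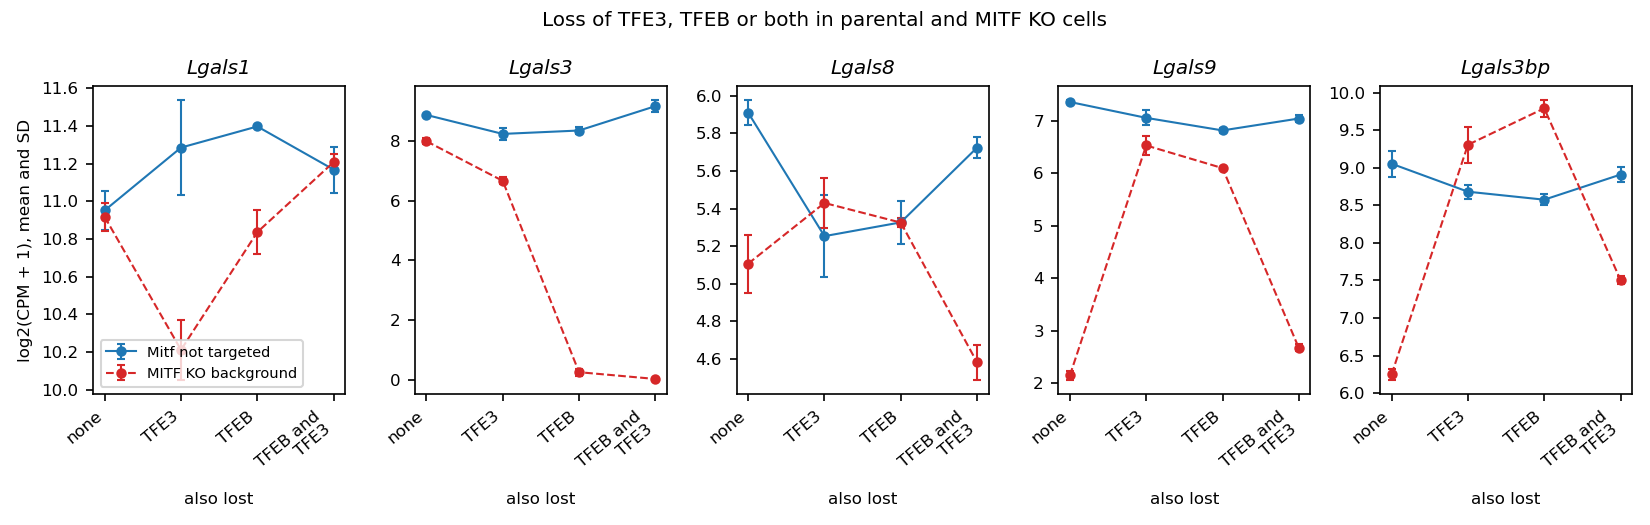
Mean and SD (3 libraries) of log2(CPM + 1) for each member, with Mitf not targeted (solid line) and in MITF KO cells (dashed line), against what else was lost; each panel has its own vertical axis. For Lgals9 and Lgals3bp the dashed line is low at both ends, in the MITF KO and the TKO, and high in between, while the solid line varies little.

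The members did not follow a common course over the lines. Across the 8 line means of log2(CPM + 1) the highest Pearson correlation between members was 0.85, between Lgals9 and Lgals3bp, followed by 0.78 between Lgals8 and Lgals9. Lgals1 had correlations of -0.25 to 0.10 with the others. The 5 genes most like Lgals3 over these means, among 9539 genes with a mean of at least 5 CPM, were Rap2b (r = 0.996), Tasor (0.995), Polr3a (0.994), Mrpl4 (0.991) and Slc35c2 (0.991). Their levels dropped less, and Rap2b had 271 CPM in parental cells, 109 CPM in MITF/TFEB DKO cells and 101 CPM in TKO cells. The genes most like Lgals9 were listed by the same measure, a choice made after the data had been seen. They were Rnf213 (0.990), Bst2 (0.981), Prpf6 (0.978), Pml (0.977) and C1ra (0.976), and Bst2 had mean levels of 331 CPM (parental), 7.54 CPM (MITF KO), 252 CPM (MITF/TFEB DKO) and 11.9 CPM (TKO). The correlations of Lgals3 rest mostly on its values in the MITF/TFEB DKO and TKO, which chose it. A high r with Lgals3 therefore mainly reflects a step down in those lines. The points are 8 means from shared libraries, so the correlations are descriptions.

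**Figure D5:**
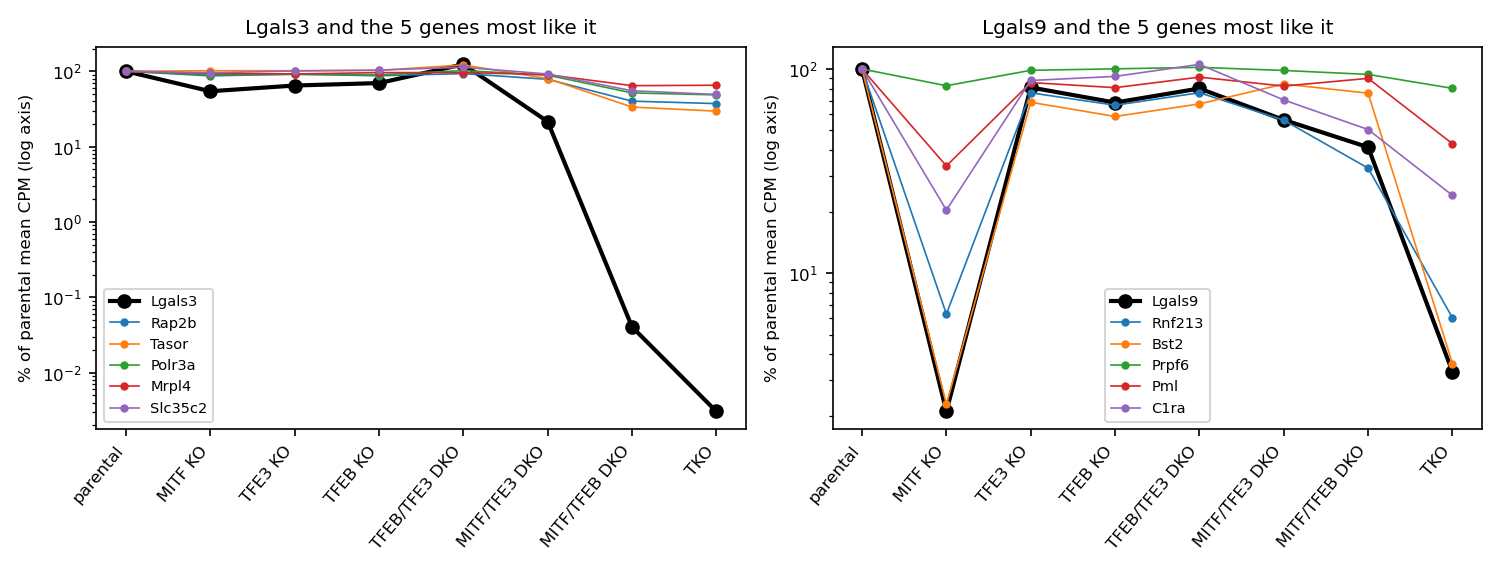
Mean CPM in each line as a percent of the parental mean (log axis) for Lgals3 and Lgals9 (black) and the 5 genes with the highest correlation to each over the 8 line means. Lgals3 drops far below the genes most like it for the MITF/TFEB DKO and TKO, while most of the genes most like Lgals9 are low in the MITF KO and the TKO, with Prpf6 the flattest; no error is drawn.

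The table held 7 galectin symbols in all. Of the 2 that are no members, Lgals7 was low, with 2.16, 3.18 and 2.07 CPM in parental cells, and rose in the TFEB/TFE3 DKO to 13.1, 9.52 and 12.6 CPM (log2 fold change 1.88 ± 0.23, adjusted p = 1e-05). It was called lower in the MITF KO (-1.29), the MITF/TFEB DKO (-1.05) and the TKO (-1.52). Lgalsl, a galectin-like gene, lay at 17.1 to 30.7 CPM in the line means and was called in none.

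Genes that make the glycans read by galectins were taken as a list of 30, of which 28 were in the table and 11 were called in at least 1 line, where 21.9% of all genes were. For the MITF/TFEB DKO 3 were called higher and 6 lower, and for the TKO 4 higher and 5 lower, beside 8.78% and 4.94% of all genes in the first and 8.28% and 6.41% in the second. The list's median log2 fold change was 0.01 and 0.08 there, as against 0.01 for all genes in both. St6gal1, whose enzyme caps galactose with sialic acid and thereby hinders binding of galectin-1, had 20.5 ± 3.91 CPM in parental cells, 4.61 ± 1.67 CPM in MITF KO cells and 1.66 ± 0.38 CPM in MITF/TFEB DKO cells (SD, n = 3). It was downregulated in the 4 lines with the MITF KO, with log2 fold changes from -3.01 to -1.46, and rose in the TFE3 KO (1.74 ± 0.31, adjusted p = 0.0005) and the TFEB/TFE3 DKO (1.42 ± 0.31, adjusted p = 0.0048). In the TFEB KO it was called at 1.05 with an adjusted p of 0.052. Mgat5, which starts the branch that galectin-3 binds best, had 15.6 ± 3.85 CPM (SD, n = 3) in parental cells. It was downregulated in 3 lines, the TKO (-1.96), MITF/TFE3 DKO (-1.49) and MITF/TFEB DKO (-1.47). Gcnt2, which branches poly-lactosamine chains, rose in MITF/TFEB DKO (1.86) and TKO cells (1.78), and Gcnt1, a branching enzyme of O-glycans, fell in the MITF/TFEB DKO (-1.71). B4galt2, a galactosyltransferase, had 2.68 CPM in parental cells, 3.51 CPM in the MITF KO and at most 0.927 CPM in the other lines.

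Of 32 glycoproteins known as galectin ligands, 29 were in the table and 15 were called in at least 1 line (21.9% of all genes). Of these, the MITF/TFEB DKO had 8 called higher and none lower, and the TKO 8 higher and 1 lower. Of all genes, 8.78% and 4.94% were called higher and lower in the first and 8.28% and 6.41% in the second. The median log2 fold change of the list was 0.24 in both, and that of all genes 0.01. Fn1, which encodes fibronectin, had 16.8 CPM in parental cells and rose to 190, 182 and 170 CPM in the MITF/TFEB DKO (3.37 ± 0.20, adjusted p = 1.7e-12) and to 273, 292 and 295 CPM in the TKO (4.04 ± 0.20, adjusted p = 4.6e-14). L1cam and Itga6, an adhesion molecule and an integrin subunit, rose in MITF KO, MITF/TFEB DKO and TKO cells, with log2 fold changes of 1.16 to 2.67. Thbs1, the gene of thrombospondin-1, had 0.734 CPM in parental cells and rose to 15.5 CPM with loss of MITF and TFEB (3.29 ± 0.25) and to 5.28 CPM in TKO cells (1.86 ± 0.25). Ncam1, a neural adhesion molecule, was called in the MITF/TFE3 DKO, from 237 CPM to 44.1 CPM (-2.42 ± 0.10, adjusted p = 2.6e-14), the line in which Lgals1 was lowest.

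Genes that handle damaged lysosomes, on which galectins gather, made up a list of 30, of which 28 were in the table and 6 were called in at least 1 line (21.9% of all genes). The MITF/TFEB DKO had 2 of them called higher and 3 lower, and the TKO 1 higher and 4 lower, with medians of -0.05 and -0.08 against 0.01 for all genes. These counts stand beside 8.78% higher and 4.94% lower among all genes in the first and 8.28% and 6.41% in the second. For the MITF/TFE3 DKO the median of the list was 0.31, against 0.02 for all genes. Tecpr1, which acts in lysosomal membrane repair, fell from 453 CPM to 173 CPM with loss of MITF and TFEB (-1.39 ± 0.08) and to 120 CPM in TKO cells (-1.91 ± 0.08). Prkaa1, a catalytic subunit of AMPK, fell in all 4 lines with the MITF KO, with log2 fold changes of -1.98 to -1.68. Fbxo2, whose product marks exposed glycoproteins for degradation, was called higher in 3 lines, with values of 1.82 (MITF/TFEB DKO), 1.5 (TKO) and 1.33 (MITF/TFE3 DKO), and fell in the TFE3 KO (-1.54). The autophagy receptor gene Optn fell in MITF/TFEB DKO (-1.06) and TKO cells (-1.21), and the lipid kinase gene Pi4k2a in the TKO (-1.29).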

How the data were processed

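RNA of 8 B16-F10 lines was made into QuantSeq Forward 3′ libraries. Per the labels and the submitters' processing notes, the authors used FastQC 0.11.9, Trim Galore 0.6.5, cutadapt 2.10, STAR 2.7.8a on mm39 and edgeR. They deposited TMM-scaled CPM, a normalised signal; CPM summing to 1 total had been planned for, and the same test was kept. The counting tool, annotation and filter are not given in the sources used here. Whole reads were recovered for 99.8% to 100% of values (tolerance 0.01 read), and TMM factors were 0.925 to 1.07.

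Values were tested with limma 3.58.1 (R 4.3.3) on log2(CPM + 1), with 24 libraries in 1 fit by line, a variance trend and 16 residual degrees of freedom, tested on simulated data. Alternatives were edgeR 4.0.16 quasi-likelihood on the recovered reads, pseudocounts of 0.25 and 5, a mean of at least 5 CPM, median-of-ratios size factors, quantile normalization, only the libraries compared, a replicate block and leaving out libraries. Columns of other samples numbered 0. Named are all members, the 3 targeted genes, at most 5 genes a list with the largest called change, 10 neighbours of Lgals3 and the 5 genes most like it. The genes most like the other members were also ranked, and of these only those of Lgals9 are reported here. Members and lists were chosen with earlier results of these data known. Coordinates are from GENCODE on GRCm39, and none of the 251 50-base words at the 3′ end of each member occurs in another gene's transcripts.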

Additional observations from a re-analysis of the deposited data

Results flagged for a closer look

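11 interactions between losses were at least 1 on the log2 scale in either direction with a limma adjusted p under 0.05, so that the effect of 1 loss differed with another. With MITF and TFEB they were 4.50 for Lgals9 and 4.02 for Lgals3bp. With MITF and TFE3 they were 4.69 for Lgals9, 3.43 for Lgals3bp and -1.04 for Lgals1. With TFEB and TFE3 they were 1.45 for Lgals3 and 1.06 for Lgals8 in cells in which Mitf was not targeted. In MITF KO cells the values for TFEB and TFE3 were -7.81 for Lgals9, -5.34 for Lgals3bp, -1.07 for Lgals8 and 1.08 for Lgals1. The interaction in MITF KO cells was added after the data had been seen. In the order given, 4, 5, 5 and 4 members were tested. Of all genes, 12.1%, 6.09%, 3.25% and 7.99% passed the same rule. Each line is represented by 3 libraries, and each KO line made for the study is a clone.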

How the results depend on the processing

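The 120 values and counts of the members were recomputed under the alternatives, which gave 1788 values. Of these, 1770 kept their call or, for a count, stayed within 1.5 times the main count. No called difference changed sign, while 12 values of differences that were not called did, of which 2 had an adjusted p under 0.05 with the new sign (Lgals1 in the MITF KO at 0.27 and in the MITF/TFEB DKO at 0.30, after quantile normalization). In the MITF/TFE3 DKO against the TFE3 KO, the members called went from 2 to 1 after quantile normalization, and to between 1 and 2 when libraries were left out. In the TFEB/TFE3 DKO against the TFE3 KO they went from 0 to between 0 and 1 when libraries were left out. In the TKO against the MITF/TFE3 DKO they ran from 2 to 3, which stays within 1.5 times. The third was Lgals1, after quantile normalization or without some single libraries. The interaction of TFEB with TFE3 for Lgals1 was -0.56 with an adjusted p of 0.092 when only the libraries compared were fitted, and ran from -0.70 to -0.45 when libraries were left out. The largest values kept their sign but moved in size beyond their SE. Over the alternatives, Lgals9 in the MITF KO ran from -5.56 to -4.32. Its interaction of TFEB with TFE3 in MITF KO cells ran from -8.39 to -6.32. Of 76 tests with an adjusted p under 0.05 in limma, 14 rose above it under at least 1 alternative, the largest of them 0.82 in log2 size (Lgals3 between the TFEB/TFE3 DKO and the TFEB KO), and of 19 others 9 fell below it under at least 1. The number of all genes called in the TFE3 KO was 205 in limma, 551 in edgeR and 75 with a pseudocount of 5. The causes were not tested. Replicate numbers did not pair the libraries, since the deviations of libraries with the same number in different lines had a mean correlation of 0.02. With the replicate number as a block, Lgals9 in the MITF KO remained at -5.21, and 1 adjusted p passed 0.05, that of Lgals8 between the TFEB/TFE3 DKO and the TFEB KO (0.048 without the block and 0.061 with it). Counts called in the gene lists moved by more than 1.5 times most often with a pseudocount of 5 (28 of 112). In the lines without Lgals3, depth limits it to the intervals given.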
